A study of Homo sapiens with 3 samples.

Results

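The BMP and TGF-beta signalling genes are 37 genes chosen by symbol, and all 37 were found among the 78932 genes of the tables. They comprise 10 ligand genes, 3 genes of secreted antagonists, 10 receptor and co-receptor genes, 8 SMAD genes, the 4 ID genes, the decoy receptor gene BAMBI and the matrix gene POSTN. RNA was measured in 3 samples of iCell GlutaNeurons (iGluta), a commercial preparation from FujiFilm Cellular Dynamics of human neurons, derived from induced pluripotent stem cells and labelled as glutamatergic. All 3 samples were wild type, untreated and 3 weeks in culture, and they form a single group. The labels call them triplicates without saying that they came from separate cultures, so each error and p-value covers no more than the differences among these 3 libraries, possibly technical ones. The comparison followed here sets sample 3 against samples 1 and 2. No label distinguishes sample 3, and its contrast was proposed with earlier results in view, so that comparison is described and not tested.

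Ligands of this family bind pairs of serine/threonine kinase receptors, in which a type II receptor switches on a type I receptor. The type I receptor then phosphorylates a receptor-activated SMAD, which joins SMAD4 and enters the nucleus. BMPs act through SMAD1, SMAD5 and SMAD9, and TGF-beta and activins through SMAD2 and SMAD3. In the developing nervous system BMPs pattern the dorsal neural tube and favour glial over neuronal fates, and blocking both branches is a common step in turning pluripotent stem cells into neural cells. The ID genes are classical immediate targets of BMP, and their proteins hold back proneural basic helix-loop-helix factors.

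The libraries held 34732725 estimated counts in sample 3, against 41079348 in sample 1 and 60092991 in sample 2. A count of 0 therefore allowed up to 3 counts per library, or 0.0864 CPM (a gene's count scaled to library size) in sample 3, 0.073 in sample 1 and 0.0499 in sample 2, and these limits cover counting error only. All 10 neuronal marker genes were above 1 TPM (a transcript's length-corrected share of the library). Markers of both transmitter systems were present, with SLC17A6, a vesicular glutamate transporter, at 160.1 TPM in sample 3, against 80.7 and 105 TPM in samples 1 and 2, and GAD1, a GABA-synthesising enzyme, at 118 TPM in sample 3, against 203 and 234 TPM. Sample 3 stood apart beyond this family. Mitochondrial transcripts made up 10.6% of its TPM, against 4.25 and 4.01% in samples 1 and 2. Of the 18192 genes with a mean of at least 1 TPM, 351 (1.93%) were at least 2-fold higher in sample 3 than in both other samples and 552 (3.03%) at least 2-fold lower, on the scale of TPM + 0.1. With TMM scaling of the counts those numbers were 353 and 293. The median gene differed by -0.13 on the log2 scale between sample 3 and the mean of samples 1 and 2, and by -0.02 with TMM.

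Genes of the family were expressed selectively. In a limma test of each gene's mean log2(TPM + 0.1) against a bar of 1 TPM, 23 of the 37 were above the bar, 8 were below, 3 were undecided and 3 had no count in any library (adjusted p under 0.05, over all 38992 genes with any signal). Of those 38992 genes, 40.6% were above the bar and 45.1% below it. Every step from receptor to nucleus had members well above the bar, whereas most BMP and activin ligand genes were near 0. Calls below the bar were lost for SMAD3 without sample 1 (limma adjusted p = 0.097) or sample 2 (0.12), for BMP6 without sample 2 (0.0607), and for FST and TGFBR3 without sample 2 (0.138 and 0.0728) or sample 3 (0.127 and 0.0633). Without sample 1 the count above the bar was 19, without sample 2 it was 18 and without sample 3 it was 22.

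**Figure D1:**
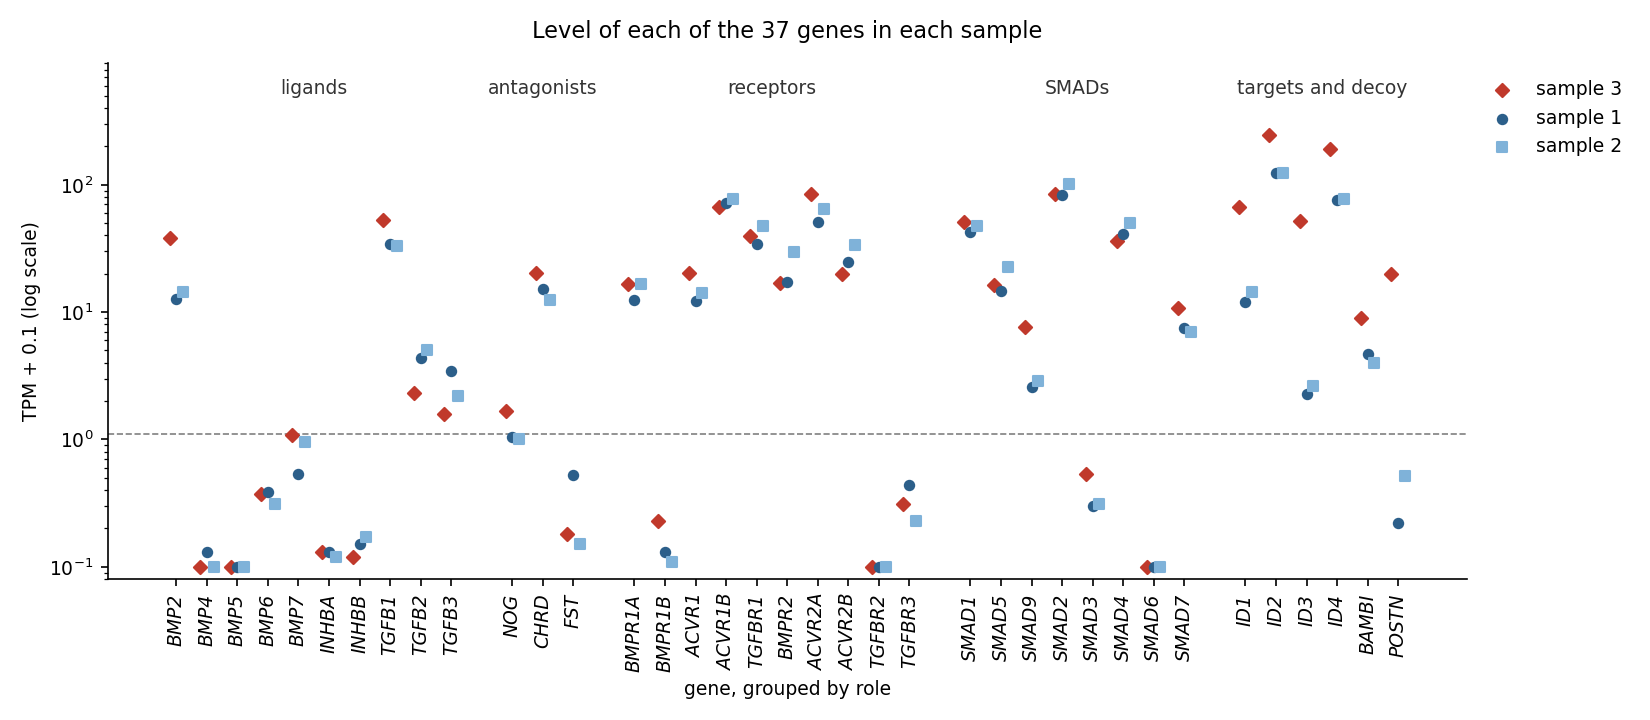
Level of each of the 37 genes in each sample, as TPM + 0.1 on a log scale, with genes grouped by role. The dashed line marks the bar of 1 TPM, symbols stand for sample 3, sample 1 and sample 2, and points at the bottom are genes with 0 TPM. Most receptor and SMAD genes above the bar lie close together in the 3 samples, and the ID genes, BMP2, SMAD9 and POSTN lie higher in sample 3.

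Among the ligands, the transcripts of TGFB1 and BMP2 were the most abundant in every sample. TGFB1 (chromosome 19, 41330323 to 41353922, GRCh38.p14) encodes the prototype of the family and had 52.6 TPM in sample 3, against 34.2 and 32.7 TPM in samples 1 and 2 (mean 39.9 ± 11.1, SD, n = 3; limma adjusted p = 8.2e-09 against 1 TPM). BMP2 (chromosome 20, 6767686 to 6780246), a bone-forming ligand that signals through SMAD1, SMAD5 and SMAD9, had 38.1 TPM in sample 3, against 12.7 and 14.3 TPM (mean 21.7 ± 14.3; limma adjusted p = 3.54e-06). Sample 3 was the highest for both genes, by 2.99-fold over sample 1 and 2.66-fold over sample 2 for BMP2 and by 1.54-fold and 1.61-fold for TGFB1.

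The other TGF-beta genes were lowest in sample 3 on TPM. TGFB2 had 2.21 TPM in sample 3, against 4.26 and 4.91 TPM in samples 1 and 2. TGFB3 had 1.48 TPM in sample 3, against 3.33 and 2.11 TPM. Neither was 2-fold below both other samples, and the difference of TGFB3 was not seen in counts. It was 0.02 on the log2 scale with DESeq2 size factors, against -0.80 on TPM, from 2.59 CPM in sample 3, against 2.70 and 2.63 CPM in samples 1 and 2. For TGFB2 it was -0.48 with DESeq2 size factors and -1.02 on TPM. TGFB1 exceeded TGFB2 by 4.51 on the log2 scale in sample 3, against 2.98 and 2.71 in samples 1 and 2 (mean 3.40 ± 0.97; exact sign-flip permutation p = 0.25, which is the smallest possible with 3 samples). Both TGFB2 (limma adjusted p = 0.000309) and TGFB3 (0.00831) were above 1 TPM, but TGFB2 lost that call without sample 1 (adjusted p = 0.0773) or sample 2 (0.0851), and TGFB3 without any one sample (0.0525 to 0.182).

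The remaining BMP and activin genes of the 37 were at or near 0. BMP7, a ligand of the developing kidney, eye and brain, had 0.98 TPM in sample 3, against 0.44 and 0.86 TPM, and was undecided (limma adjusted p = 0.327). BMP6 had 0.27 TPM in sample 3, against 0.29 and 0.21 TPM, and was below the bar. INHBA and INHBB, the genes of the activin beta subunits, had 0.02 to 0.07 TPM in every sample, from 1 to 6 counts each. BMP4, which shares most of its receptors with BMP2, had 1 count in sample 1 and 0 in the others, and BMP5 had 0 counts in all 3 libraries. BMP2 supplied 38.1 of the 39.4 TPM summed over these 5 BMP genes in sample 3, against 12.7 of 13.4 TPM in sample 1 and 14.3 of 15.4 TPM in sample 2. BMP8B, a BMP gene outside the family list and named after its values were seen, added 6.08 TPM in sample 3, against 5.61 and 5.88 TPM. Its close paralogue BMP8A had 1.72 TPM in sample 3, against 2.15 and 2.17 TPM, and reads of the pair may be divided uncertainly.

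Of the secreted antagonists, CHRD, whose product chordin binds BMPs in the dorsal organiser, was the only member above the bar. It had 20.1 TPM in sample 3, against 15.1 and 12.5 TPM in samples 1 and 2 (mean 15.9 ± 3.87; limma adjusted p = 7.01e-08). NOG, whose product noggin also sequesters BMPs, had 1.57 TPM in sample 3, against 0.95 and 0.9 TPM, and was undecided (limma adjusted p = 0.709). FST, which encodes the activin-binding follistatin, had 3 to 5 counts in every library. Its levels of 0.08 TPM in sample 3, against 0.43 and 0.05 TPM in samples 1 and 2, rest on those few reads.

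The type I receptors were led by the activin and TGF-beta branch. ACVR1B, the activin receptor ALK4 (chromosome 12, 51951699 to 51997078), had 66.6 TPM in sample 3, against 71.8 and 77.8 TPM in samples 1 and 2 (mean 72.1 ± 5.61; limma adjusted p = 1.57e-10). TGFBR1, the TGF-beta receptor ALK5, had 39.4 TPM in sample 3, against 34.1 and 47.5 TPM. Among the BMP type I receptors, ACVR1 had 20.1 TPM in sample 3, against 12.1 and 14.1 TPM. BMPR1A had 16.5 TPM in sample 3, against 12.3 and 16.4 TPM. ACVR1 and BMPR1A changed places between samples on TPM. On CPM BMPR1A had 37.03, 27.43 and 32.95 CPM in samples 3, 1 and 2, above ACVR1 at 30.63, 18.31 and 18.94 CPM. Their order is therefore not settled. BMPR1B was close to absent, with 4, 1 and 1 counts in samples 3, 1 and 2, and BMPR1A exceeded it by 6.66 ± 0.53 on the log2 scale (exact sign-flip permutation p = 0.25).

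The type II receptors were led by ACVR2A, which binds activins and several BMPs. It had 84.1 TPM in sample 3, against 50.9 and 64.3 TPM in samples 1 and 2 (mean 66.4 ± 16.7; limma adjusted p = 2.48e-09). Its paralogue ACVR2B had 19.9 TPM in sample 3, against 24.7 and 33.4 TPM, and BMPR2, which is selective for BMPs, had 16.7 TPM in sample 3, against 17.1 and 29.7 TPM. ACVR2B was below ACVR2A by a log2 ratio of -2.07 in sample 3, against -1.04 and -0.94 in samples 1 and 2. That order belongs to the length-corrected scale: in counts, ACVR2B exceeded ACVR2A in samples 1 and 2 (6255 against 3725, and 11485 against 6107), and on CPM the mean log2 ratio was 0.54. Without sample 1 the TPM ratio was -1.51 and within 2 SD of 0.

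TGFBR2, the only type II receptor of TGF-beta itself, had 0 counts in all 3 libraries, which allows up to 0.0864 CPM in sample 3, 0.073 in sample 1 and 0.0499 in sample 2. BMPR2 had 3597, 4152 and 10249 counts in the same libraries. That limit covers counting error only: the annotation and any filter used by the authors are not known here, so an exact 0 could also come from how reads were assigned. The co-receptor gene TGFBR3, whose product betaglycan presents TGF-beta, was below the bar at 0.21 TPM in sample 3, against 0.34 and 0.13 TPM. On CPM it was higher in sample 3, at 0.69 CPM, against 0.29 and 0.27 CPM, from 24, 12 and 16 counts in samples 3, 1 and 2. The transcripts of TGFB1 and of its type I receptor were abundant in libraries in which no read was assigned to its type II receptor.

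Among the receptor-activated SMADs, SMAD2 of the TGF-beta branch (chromosome 18, 47808957 to 47930872) was the highest, at 84.1 TPM in sample 3, against 83.2 and 102 TPM in samples 1 and 2 (mean 89.7 ± 10.5; limma adjusted p = 1.74e-10). SMAD3, its partner in that branch, was below the bar at 0.44 TPM in sample 3, against 0.2 and 0.21 TPM, from 44, 14 and 23 counts. SMAD2 exceeded SMAD3 by 7.92 ± 0.56 on the log2 scale (exact sign-flip permutation p = 0.25). Summed over both genes, nearly all of the transcripts of that branch were SMAD2.

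In the BMP branch SMAD1 led, at 50.7 TPM in sample 3, against 42.3 and 47.5 TPM (mean 46.8 ± 4.22; limma adjusted p = 3.94e-10). SMAD5 followed at 16.4 TPM in sample 3, against 14.7 and 22.6 TPM. The log2 ratio of SMAD5 over SMAD1 was -1.41 ± 0.30, but -0.14 and within 2 SD of 0 on CPM. SMAD9 (chromosome 13, 36844831 to 36920854) was the lowest of the branch, at 7.53 TPM in sample 3, against 2.47 and 2.77 TPM. Among the SMAD genes with a mean of at least 1 TPM it alone was over 2-fold higher in sample 3 than in both others, by 2.97-fold over sample 1 and 2.66-fold over sample 2 on TPM + 0.1. SMAD3, under that filter, was also highest in sample 3, at 1.27 CPM, against 0.341 and 0.383 CPM in samples 1 and 2, with a log2 difference of 0.82 on TPM + 0.1 and 1.61 with DESeq2 size factors. The place of SMAD9 above the bar (limma adjusted p = 0.000928) was lost without sample 1 (0.0707) or sample 2 (0.115).

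SMAD4, the common partner of both branches, had 35.9 TPM in sample 3, against 40.8 and 50.4 TPM in samples 1 and 2. Of the inhibitory SMADs, SMAD7 had 10.7 TPM in sample 3, against 7.35 and 6.88 TPM (limma adjusted p = 9.2e-07). SMAD6, the inhibitor that acts mainly on the BMP branch and is itself a BMP target, had 0 counts in all 3 libraries, with the same limits and the same doubt about read assignment as TGFBR2. The RefSeq sequence before the SMAD6 start, on GRCh38.p14, holds the palindrome GTCTAGAC, known as a binding sequence of SMAD3 and SMAD4, from base -12 to base -5. It is shown because that palindrome was found in only 0.182% of all 35114 windows of 250 bases before a RefSeq start. The stretch lies at chr15:66702214-66702235 on the plus strand, and capitals mark the palindrome.
SMAD6: ccgccaaagtGTCTAGACtggc

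All 4 ID genes were above the bar, and sample 3 was the highest for each. ID2 (chromosome 2, 8682056 to 8684461) had 246 TPM in sample 3, against 124.5 and 123.5 TPM in samples 1 and 2 (mean 165 ± 70.6; limma adjusted p = 6.13e-09 against 1 TPM). ID4 (chromosome 6, 19837370 to 19842197), which marks neural progenitors and some neurons, had 192 TPM in sample 3, against 76.3 and 77.7 TPM (mean 115 ± 66.3; limma adjusted p = 5.68e-08). ID1 (chromosome 20, 31605289 to 31606510) had 66.6 TPM in sample 3, against 11.99 and 14.35 TPM (mean 31.0 ± 30.8; limma adjusted p = 2.82e-05). ID3 (chromosome 1, 23557926 to 23559501) had 51.8 TPM in sample 3, against 2.19 and 2.51 TPM (mean 18.8 ± 28.6; limma adjusted p = 0.0144).

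Samples 1 and 2 agreed closely on each ID gene, with log2 differences of -0.26 for ID1, 0.01 for ID2, -0.19 for ID3 and -0.03 for ID4, and sample 3 lay outside them every time. The counts behind these levels were 1002 in sample 3 against 215 and 344 for ID1, 728 against 37 and 57 for ID3, 4268 against 2184 and 3187 for ID2, and 13307 against 6166 and 8513 for ID4. The factor by which sample 3 was higher differed between the genes. It was 22.7-fold over sample 1 and 19.9-fold over sample 2 for ID3, 5.51-fold and 4.61-fold for ID1, 2.51-fold and 2.47-fold for ID4, and 1.98-fold and 1.99-fold for ID2, just short of the 2-fold mark.

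The order ID2, ID4, ID1, ID3 was the same in all 3 samples on TPM. On CPM, which does not divide by length, ID4 exceeded ID2 in every sample. ID4 had 383, 150 and 142 CPM in samples 3, 1 and 2, against 123, 53.2 and 53.0 CPM for ID2. The distances on TPM changed between samples. ID3 was below ID1 by a log2 ratio of -0.36 in sample 3, against -2.40 and -2.47 in samples 1 and 2. ID2 exceeded ID1 by 1.89 in sample 3, against 3.37 and 3.10. Summed over the 4 genes, ID transcripts made up 556.5 TPM in sample 3, against 215 and 218 TPM. The call of ID3 above the bar was kept without sample 3, and was lost without sample 1 (limma adjusted p = 0.176) or sample 2 (0.234), and that of ID1 without sample 2 (0.0648). ID2 has an antisense partner, ID2-AS1, with 243 counts in sample 3, against 221 and 361 in samples 1 and 2, which is small beside the counts of ID2.

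**Figure D2:**
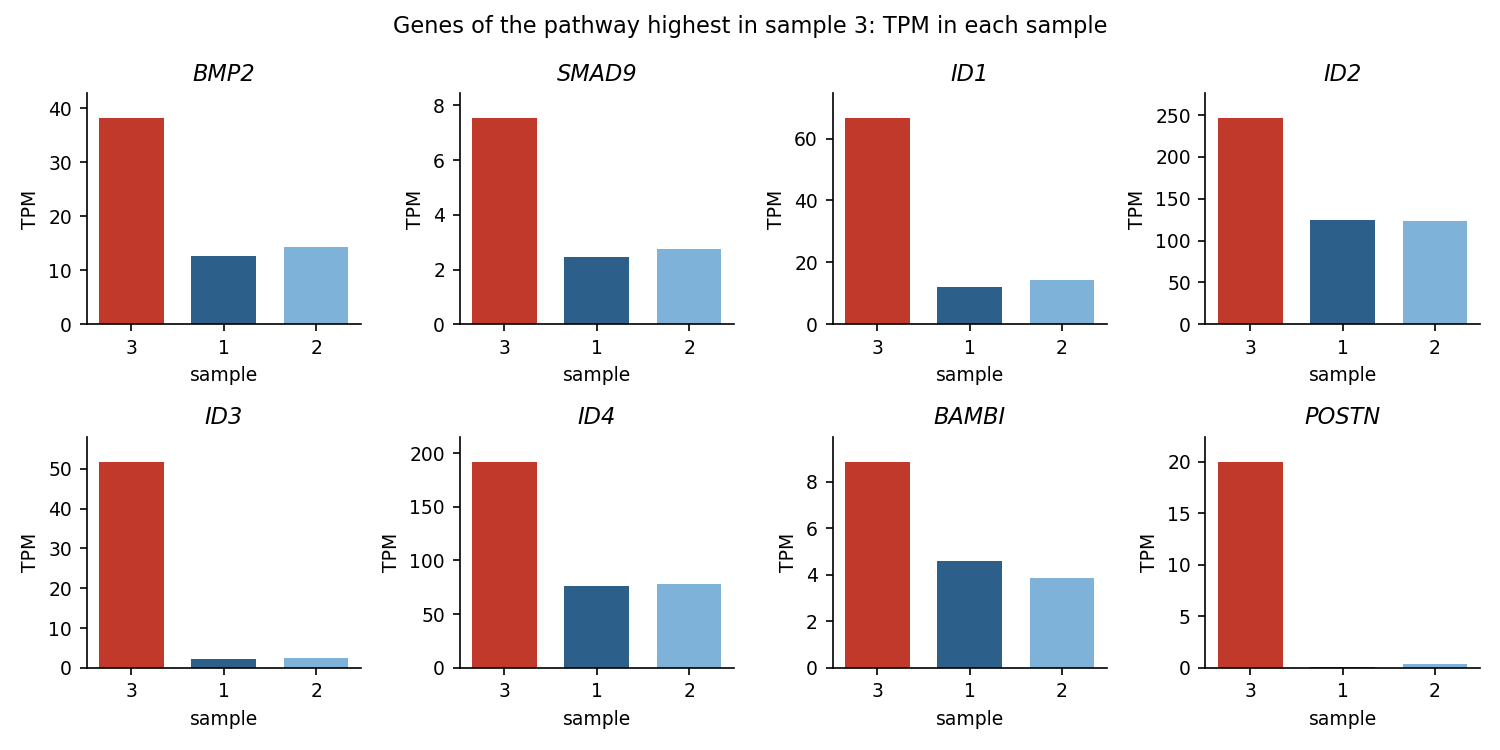
TPM of BMP2, SMAD9, ID1, ID2, ID3, ID4, BAMBI and POSTN in sample 3, sample 1 and sample 2, with one bar per sample and an axis from 0 for each gene. Samples 1 and 2 have similar bars, with POSTN near 0 in both, and the bar of sample 3 is the tallest in every panel, from 246 TPM for ID2 to 7.53 TPM for SMAD9.

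The sequences before the starts of the ID genes, BAMBI and POSTN are shown because all 6 genes were highest in sample 3. Each line gives the 250 bases before the RefSeq start on GRCh38.p14, on the gene's own strand: ID1 at chr20:31605039-31605288 (plus), ID2 at chr2:8681806-8682055 (plus), ID3 at chr1:23559502-23559751 (minus), ID4 at chr6:19837120-19837369 (plus), BAMBI at chr10:28677271-28677520 (plus) and POSTN at chr13:37598769-37599018 (minus). Capitals mark matches to GGCGCC, the core of BMP response elements, to CAGAC, a short SMAD-binding sequence, to the palindrome named above for SMAD6, and to TATAAA, the TATA box. Both strands were searched, and the capitals in ID1 are a pair of overlapping TATA matches.
ID1: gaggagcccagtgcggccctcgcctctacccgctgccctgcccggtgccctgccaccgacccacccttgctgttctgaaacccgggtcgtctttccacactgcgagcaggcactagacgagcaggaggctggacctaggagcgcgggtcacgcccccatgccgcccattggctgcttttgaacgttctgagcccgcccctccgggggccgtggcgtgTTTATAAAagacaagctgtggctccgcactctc
ID2: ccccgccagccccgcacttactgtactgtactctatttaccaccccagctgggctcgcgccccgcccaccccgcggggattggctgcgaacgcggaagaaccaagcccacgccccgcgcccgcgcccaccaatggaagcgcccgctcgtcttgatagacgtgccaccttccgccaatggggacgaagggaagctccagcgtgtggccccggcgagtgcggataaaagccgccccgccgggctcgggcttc
ID3: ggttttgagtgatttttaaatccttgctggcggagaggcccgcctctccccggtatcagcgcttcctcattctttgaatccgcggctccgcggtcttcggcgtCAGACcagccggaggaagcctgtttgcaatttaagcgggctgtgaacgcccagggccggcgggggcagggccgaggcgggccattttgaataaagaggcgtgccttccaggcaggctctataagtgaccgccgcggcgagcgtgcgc
ID4: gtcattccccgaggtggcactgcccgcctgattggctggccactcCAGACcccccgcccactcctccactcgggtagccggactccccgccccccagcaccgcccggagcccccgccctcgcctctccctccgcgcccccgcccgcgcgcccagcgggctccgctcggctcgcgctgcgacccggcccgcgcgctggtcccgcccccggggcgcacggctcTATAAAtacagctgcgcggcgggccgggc
BAMBI: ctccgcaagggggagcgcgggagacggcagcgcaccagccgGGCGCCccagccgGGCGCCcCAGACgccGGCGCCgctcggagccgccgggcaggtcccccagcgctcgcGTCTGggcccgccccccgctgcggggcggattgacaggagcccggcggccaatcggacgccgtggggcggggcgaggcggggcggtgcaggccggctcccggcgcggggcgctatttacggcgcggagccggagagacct
POSTN: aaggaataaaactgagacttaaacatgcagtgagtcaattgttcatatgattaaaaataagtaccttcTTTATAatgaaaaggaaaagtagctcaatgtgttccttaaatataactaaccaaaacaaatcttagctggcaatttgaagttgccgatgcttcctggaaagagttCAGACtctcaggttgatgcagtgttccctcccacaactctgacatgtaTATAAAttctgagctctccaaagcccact

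None of the 4 ID windows held GGCGCC, which was found in 16.4% of all 35114 windows, so these letters were not shared by the ID windows. Sequence outside the 250 bases was not searched, so the ID genes may hold GGCGCC elsewhere. BAMBI held it 3 times, with the first bases at -209, -196 and -181. CAGAC was found on either strand once each in ID3, ID4 and POSTN, 2 times in BAMBI and not in ID1 or ID2, against 38% of all windows. TATAAA was found on either strand in ID1, ID4 and POSTN, against 10.7% of all windows, and its match nearest the start began at base -31 in ID1 and at base -29 in ID4 and POSTN. The GC content was 62.0 to 78.8% in the 4 ID windows and 36.4% in that of POSTN, with a median of 58.0% over all windows. A match is a stretch of letters and does not show binding. Windows were found for 34 of the 37 genes, which does not include BMP2, BMP7 and NOG.

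BAMBI encodes a receptor-like decoy without a kinase that is induced by BMP and TGF-beta and dampens both. It had 8.85 TPM in sample 3, against 4.57 and 3.85 TPM in samples 1 and 2 (mean 5.76 ± 2.70; limma adjusted p = 4.3e-05). Sample 3 was 1.92-fold above sample 1 and 2.27-fold above sample 2. With ID2, it stood just outside the 2-fold mark, and with DESeq2 size factors or without mitochondrial transcripts both genes passed it.

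POSTN encodes periostin, a secreted matrix protein of mesenchymal tissues that TGF-beta induces. It had 19.98 TPM in sample 3, against 0.12 and 0.42 TPM in samples 1 and 2, from 1004 counts in sample 3, against 7 and 22 counts. It was nearly confined to one library, 91.3-fold above sample 1 and 38.6-fold above sample 2 on TPM + 0.1, and its mean was undecided against 1 TPM (limma adjusted p = 0.826). POSTN (chromosome 13, 37562585 to 37598768) lies 642 kb from SMAD9, which was also over 2-fold higher in sample 3. Of the other 4 protein-coding genes between them, the 3 with a mean of at least 1 TPM did not share the difference. These were ALG5, EXOSC8 and SUPT20H, which lay between -0.22 and -0.03 on the log2 scale in sample 3. CSNK1A1L was too low to be read, at 0 TPM in sample 3, against 0 and 0.05 TPM.

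The 37 genes can be read together by how far sample 3 lay from samples 1 and 2. A filter of at least 1 TPM on the mean was passed by 25 of the 37 genes, and 12 did not pass. Of the 25, 6 were at least 2-fold higher in sample 3 than in both other samples (BMP2, SMAD9, ID1, ID3, ID4 and POSTN), where the background over all genes was 1.93%, and none was at least 2-fold lower, where it was 3.03%. POSTN and NOG passed the filter only through sample 3. With the filter set on the mean of samples 1 and 2 alone, 5 of 23 were higher, against 1.26% of all genes. These counts describe genes that were listed with such results known and test nothing. The median log2 difference of the 25 was 0.55, against -0.13 over all 18192 genes.

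By role, 4 of the 6 target and decoy genes (ID1, ID3, ID4 and POSTN) passed the 2-fold mark, against 1.93% of all genes. All 6 were highest in sample 3, which held for 22.9% of all genes. POSTN is in both counts only through its value in sample 3, which alone carried it past the filter. Over the 25 genes, sample 3 was the highest for 16, with POSTN and NOG among them. It was the lowest for 6 of the 25, against 53% of all genes. None of the 7 receptor genes that passed the filter reached the 2-fold mark. Their log2 differences from the mean of samples 1 and 2 ran from -0.53 for ACVR2B to 0.62 for ACVR1, with a median of -0.03. Of the 6 SMAD genes that passed the filter, SMAD9 alone reached the 2-fold mark, at 1.49. The others ran from -0.34 for SMAD4 to 0.58 for SMAD7. Of the ligands and antagonists, BMP2 alone reached the 2-fold mark. The log2 differences of the others were 0.65 for TGFB1, 0.70 for NOG, 0.55 for CHRD, -0.80 for TGFB3 and -1.02 for TGFB2 on TPM. The same 6 genes passed the mark with a pseudocount of 0.5 or 0.01, with TMM scaling, with DESeq2 size factors and without mitochondrial transcripts, and without sample 1 or without sample 2.

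**Figure D3:**
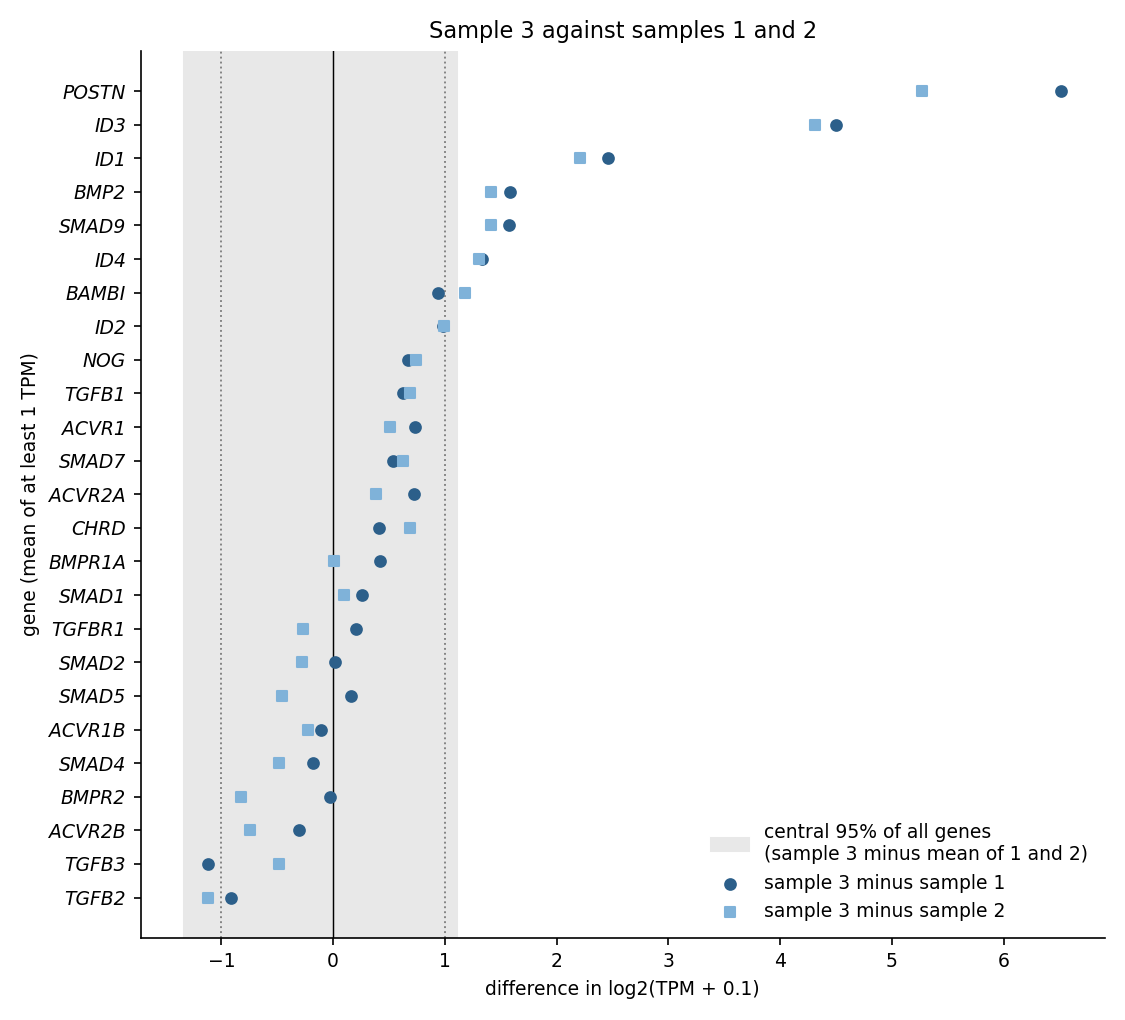
Difference in log2(TPM + 0.1) between sample 3 and sample 1 (circles) and between sample 3 and sample 2 (squares) for the 25 genes with a mean of at least 1 TPM. The grey band holds the central 95% of all genes for sample 3 minus the mean of samples 1 and 2 (-1.33 to 1.11), whereas each point is set against a single sample. The dotted lines mark 2-fold. POSTN, ID3, ID1, BMP2, SMAD9 and ID4 lie to the right of the band for both samples.

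Other genes of the pathway were read from 5 lists of 97 genes, all found in the tables. Of the 97, 50 were above 1 TPM, 27 below, 16 undecided and 4 had no count (limma, adjusted p under 0.05). Among 57 with a mean of at least 1 TPM, VIM was among those at least 2-fold higher in sample 3. Of the 57, 3 were at least 2-fold lower, BMP3, LEFTY1 and COL1A2, where the background over all genes was 3.03%. The median log2 difference of the 57 was -0.08, beside -0.13 over all genes.

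In the list of 23 other ligands, 7 were above the bar, led by GDF1 (64.5 TPM in sample 3, against 77.3 and 51.7 TPM) and AMH (51.3 TPM in sample 3, against 73.3 and 61.9 TPM). GDF1 shares a transcript with CERS1, so its reads are less certain. BMP3, which opposes other BMPs, had 0.45 TPM in sample 3, against 1.72 and 1.73 TPM, and LEFTY1, an inhibitor of Nodal, had 1.97 TPM in sample 3, against 5.05 and 4.59 TPM. Both were lower in sample 3, unlike BMP2.

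Of 19 other antagonists and latency proteins 8 were above, led by LTBP4, which anchors latent TGF-beta in the matrix (81.3 TPM in sample 3, against 84.7 and 78.3 TPM), and the BMP antagonist NBL1 (59.7 TPM in sample 3, against 63.9 and 61.6 TPM). None was 2-fold apart from both other samples in sample 3. Of 11 other receptors and co-receptors 5 were above, led by the netrin and repulsive guidance receptor NEO1 (91.7 TPM in sample 3, against 113 and 141 TPM) and the BMP co-receptor RGMA (114.5 TPM in sample 3, against 75.3 and 71.0 TPM), and CRIPTO and HJV had 0 TPM. Of 23 cytoplasmic and nuclear regulators 20 were above, led by STRAP (235 TPM in sample 3, against 256 and 271 TPM), whose product binds TGF-beta receptors, and FKBP1A (158 TPM in sample 3, against 177 and 166 TPM), whose product holds type I receptors silent. None of those regulators was 2-fold apart in sample 3.

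Among 21 other target genes 10 were above the bar, and those of TGF-beta did not all differ in one direction. CDKN1A, a cell cycle inhibitor, had 107 TPM in sample 3, against 64.2 and 57.9 TPM. PMEPA1, a feedback inhibitor of TGF-beta chosen after its values were seen, had 32.0 TPM in sample 3, against 14.1 and 16.1 TPM. COL1A2, a fibrillar collagen, was lower at 1.69 TPM in sample 3, against 4.2 TPM in both others. The homeobox genes MSX1 and MSX2, also chosen after their values were seen and known as BMP targets, were below 1 TPM (limma, adjusted p = 0.0194 and 5.74e-06). MSX1 had 0.18 TPM in sample 3, against 0.47 and 0.44 TPM, and MSX2 had 0 TPM in sample 3, against 0 and 0.03 TPM. They do not stand for the whole list. Of its 11 genes with a mean of at least 1 TPM, sample 3 was the highest for 6 and the lowest for 4, against 22.9% and 53% of all genes.

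Some of these targets also mark other cell types, so 9 marker lists were read beside them. In bulk RNA, more cells of a type and more RNA per cell cannot be told apart. The 10 genes of radial glia and progenitors summed to 407 TPM in sample 3, against 251 and 254 TPM in samples 1 and 2, from the filament genes VIM (267 TPM in sample 3, against 123 and 119.8 TPM) and NES (88.5 TPM in sample 3, against 38.1 and 43.9 TPM). In the same list PAX6 was lower at 46.8 TPM in sample 3, against 84.5 and 85.5 TPM, and the progenitor factor SOX2 had 0.57 TPM in sample 3, against 0.74 and 1.27 TPM. The 8 epithelial genes summed to 267 TPM in sample 3, against 126 and 124 TPM, with KRT8 at 115 TPM in sample 3, against 25.95 and 24.37 TPM, a gene with near-identical pseudogenes whose reads are less certain. Their part in the ID, BMP2 and POSTN values was not tested, nor was that of the mitochondrial share.

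The sums of the other lists were close to or below those of samples 1 and 2 in sample 3. The 10 astrocyte genes summed to 81.6 TPM in sample 3, against 101 and 104 TPM, through SLC1A2, a glutamate transporter, at 42.7 TPM in sample 3, against 66.0 and 76.1 TPM. The 5 genes of the list with a mean of at least 1 TPM had a median log2 difference of 0.34. Sample 3 was the highest for 3 of them and the lowest for 2, SLC1A2 and SLC1A3. SLC1A3 had 0.53 TPM in sample 3, against 2.1 and 0.69 TPM, from 7, 23 and 27 counts in samples 3, 1 and 2. FABP7 had 31.2 TPM in sample 3, against 27.5 and 22.1 TPM, SOX9 had 2.78 TPM in sample 3, against 1.49 and 1.56 TPM, and S100B had 2.51 TPM in sample 3, against 2.21 and 1.6 TPM. GFAP, the astrocyte filament, had 0.86 TPM in sample 3, against 0.81 and 0.8 TPM. On CPM it was higher in sample 3, at 1.52 CPM, against 0.72 and 0.87 CPM, from estimated counts that were not whole. The 10 mesenchymal genes summed to 224 TPM in sample 3, against 260.4 and 255 TPM, almost wholly THY1, which neurons also express. LUM had 0 TPM in every sample, and DCN had 0 TPM in sample 3, against 0 and 0.08 TPM. COL3A1 was near 0, with 9 counts in sample 3, against 0 and 4 in samples 1 and 2. The 10 choroid plexus and roof plate genes summed to 9.16 TPM in sample 3, against 9.19 and 9.48 TPM, and the 10 Schwann and neural crest genes to 14.2 TPM in sample 3, against 17.7 and 16.3 TPM. Endothelial and microglial lists of 8 genes each summed to 0.69 and 0.49 TPM in sample 3, against at most 1.68 TPM in the others. The 10 neuronal genes summed to 7314 TPM in sample 3, against 8210 and 8200 TPM.

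**Figure D4:**
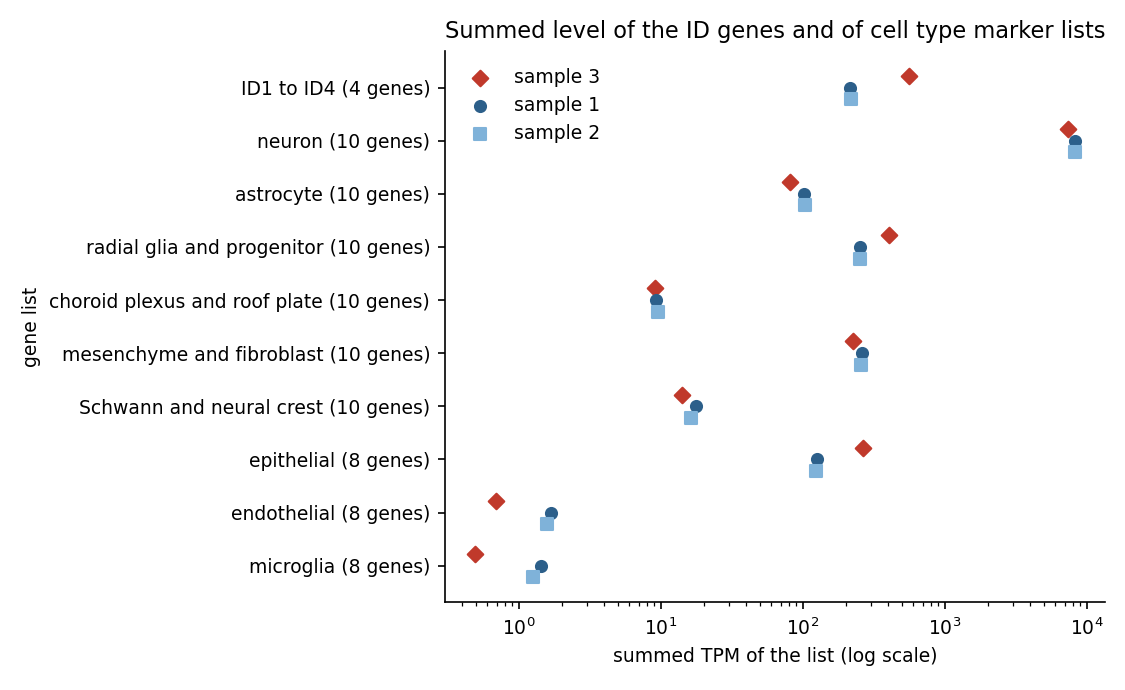
Summed TPM, on a log scale, of ID1 to ID4 and of 9 marker lists in sample 3, sample 1 and sample 2, with the number of genes in brackets. The ID genes, the progenitor list and the epithelial list are higher in sample 3, and the sums of the other lists are at or below those of samples 1 and 2.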

How the data were processed

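Polyadenylated RNA was sequenced as paired 151 bp reads from strand-specific libraries, per the labels' protocols. The authors deposited estimated counts (expected counts) and TPM for 78932 genes. RSEM and the build GRCh38.p14 are named in the submitters' processing notes; for the aligner, annotation release, filters and strand setting, nothing is given in the sources used. TPM divides by transcript length and is a share, so a larger mitochondrial share lowers all other values. Estimated counts of 8 of the 37 genes were not whole (tolerance 0.005), where RSEM divided reads between genes; the ID genes and POSTN were whole. Without a stated strand setting, reads of antisense partners cannot be told apart. The largest count of a partner RNA other than ID2-AS1 and ACVR2B-AS1 was 7.

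Levels were tested against 1 TPM with limma 3.58.1 (R 4.3.3; intercept only, eBayes with trend, 2-sided, Benjamini-Hochberg adjustment) on log2(TPM + 0.1), which understates differences of low genes, and the step was tested on simulated data. Means are over 3 samples with SD. For 14 ratios between genes of the family an exact 2-sided sign-flip test was used, with an adjusted p of at least 0.269; a ratio was called when all samples had one sign and the mean exceeded 2 SD, and 11 were. Scaling alternatives used edgeR 4.0.16 (TMM) and DESeq2 1.42.0 size factors on rounded counts. The genes and lists were chosen with earlier results of these data known. Named genes were the whole family and, in each other list, the 2 highest and up to 3 that stood 2-fold apart in sample 3. Not all of these are reported, and the text marks most others. SLC17A6, GAD1, SOX2, GFAP, SOX9, S100B, SLC1A3, LUM, DCN, COL3A1 and BMP8A were also picked with their values known. CRIPTO was matched through its older symbol. Promoter windows and gene positions are from RefSeq on GRCh38.p14, and positions were found for all 37 genes. No genome was used. Sample numbers follow the titles. A result on another target gene is not reported here.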

Additional observations from a re-analysis of the deposited data

How the results depend on the processing

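No paired analysis was possible because the series has a single group. The number of family genes above 1 TPM stayed within 1.5 times the 23 reported under every alternative, and ran from 18 to 22 with one sample left out. The 8 below became 3 when genes with a mean count under 10 were not tested, 5 with a bar of 0.5 TPM, and 4 to 7 with one sample left out. Over all genes, the 17574 below became 1929 with that count minimum, by fewer genes tested, and 11001 to 12353 with one sample left out. NOG turned to -0.80 against a bar of 2 TPM, by construction, and the ACVR2B to ACVR2A ratio turned to 0.54 on CPM, which does not divide by length. Between 10 and 12 of the 14 ratios were called under every alternative. With a mark of 1.5-fold, 10 family genes were higher and 1 (TGFB2) lower in sample 3, and 804 and 1501 of all genes. Against only one of samples 1 and 2, 1 family gene was lower (TGFB2 against sample 2, TGFB3 against sample 1), with 513 to 701 of all genes higher and 891 to 998 lower. The 552 genes lower became 355 with a pseudocount of 0.5, 293 with TMM and 279 with DESeq2 size factors; the cause was not tested. With a mean of at least 0.1 TPM, 1280 genes were higher and 2223 lower, and with at least 5 TPM, 126 and 129, by the number of genes read; SMAD9 then drops out at a mean of 4.26 TPM. With the filter on samples 1 and 2, chosen after seeing the data, 230 of all genes were higher. Depth limits the genes with few counts: BMP4, BMP5, INHBA, INHBB, FST, BMPR1B, TGFBR2 and SMAD6 had at most 6 counts in any library.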
